A study of Homo sapiens with 46 samples.

Results

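Among the transcripts that the study assembled in human pluripotent stem cells, 437 of 32819 (1.33%) carry no Ensembl gene, no Ensembl transcript and no gene symbol. They were selected by that empty annotation field, with no filter on their values. This part of the table was, however, chosen with earlier results of these data known. They are described here as rows of the count table, by the transcript number the assembly gave them, such as ESC.16985.1, the first transcript of locus 16985. An assembled transcript is a model built from overlapping reads, and one without a gene can be an unannotated long noncoding RNA, an extra piece of a known transcription unit, or RNA from a part of the genome that gene catalogues do not cover. Pluripotent cells are known for transcribing transposable elements, many of which supply the promoter or exons of such RNAs. The tables do not say which of these rows hold such elements, and no sequence or position of these rows was used here, so none is printed.

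The cells are H1, an established human embryonic stem cell line, kept in mTeSR1 medium on Matrigel per the labels, which name no treatment for these libraries. The series design text names actinomycin D, but no label of these libraries does, and they were taken as untreated. RNA was taken from 4 fractions with 3 libraries each, which makes 12 libraries of 1 cell line: the cytoplasm, the whole nucleus, the nucleoplasm (what lysed nuclei release into solution) and chromatin (what stays in their pellet). All groups went through buffers with α-amanitin, an inhibitor of RNA polymerase II. RNA of the cytoplasm and the nucleoplasm came from supernatants, and RNA of the nucleus and of chromatin from resuspended pellets. The labels call the libraries repeats and do not say that they came from separate cultures, so p-values measure only the spread between these libraries. Each library is scaled to its own total, so a share can rise because other RNA is less abundant, and a difference between fractions is one of share and not of amount per cell. Fewer cells with a transcript and less of it per cell cannot be told apart.

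Library totals ran from 8329295 to 15798639 counts. All 14 genes of a list of pluripotency markers had rows, 13 of them at a mean of 1 CPM or more, the count scaled so that all libraries have equal totals. Their sum ran from 10630 to 14210 CPM. Of 4 fibroblast markers, DCN and LUM had no row, and the sum of COL1A1 and COL1A2 ran from 81.8 to 129.8 CPM in the cytoplasm and from 946.6 to 1768 CPM in the other fractions. Of 8 mesoderm symbols 4 had rows, with KDR the highest at a mean of 230.5 CPM. Their sum ran from 32.66 to 38.28 CPM in the cytoplasm and from 198.2 to 468.7 CPM in the other fractions. Of 6 ectoderm markers only OTX2 had a row, at a mean of 46.61 CPM, and of 7 endoderm markers none did. The part of cells with such markers in the results was not tested. The nuclear RNA MALAT1 was at 587 to 1029 CPM in the nucleoplasm and at 208 to 252 CPM in the cytoplasm. It was at 74.1 to 95.7 CPM in the nucleus and at 94.9 to 167 CPM in chromatin, both below the cytoplasm. NEAT1, also a nuclear RNA, had the same order of means: 9.45 CPM in the nucleoplasm, 3.27 in the cytoplasm, 1.50 in chromatin and 1.22 in the nucleus. The nucleus and chromatin libraries thus go against their labels for these markers. SNHG14 went with the labels, at means of 661 CPM in the cytoplasm, 869.5 in the nucleus, 1539 in the nucleoplasm and 2374 in chromatin. MEG3 was low throughout, at 1.01 CPM in the cytoplasm, 1.03 in the nucleoplasm, 1.59 in the nucleus and 2.14 in chromatin. The mRNAs ACTB, GAPDH, RPLP0, EEF1A1, TUBA1B and RPS3 all had their highest mean in the cytoplasm. GAPDH, for example, was at 6145 CPM there and at 2707 to 3058 CPM in the other fractions. Each comparison of the nucleus or chromatin with the cytoplasm carries the limit seen for MALAT1 and NEAT1. Mitochondrial genes took 13.89 ± 1.26% (SD, n = 3) of counts in the nucleus, 11.01 ± 0.512% in the nucleoplasm, 5.066 ± 0.662% in chromatin and 0.515 ± 0.109% in the cytoplasm.

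The 437 rows lie in 281 loci of the assembly, and 233 of them are the only transcript of their locus. A further 199 share 43 loci with other such rows, the largest of which, ESC.4021, holds 21. Only 12 loci, with 27 of the rows, also hold transcripts of an Ensembl gene. In locus 4822, which holds 3 transcripts of ENSG00000288774, the row without a gene took 59.8% of the locus's counts. In locus 16659, beside the pseudogene PAICSP7, the rows without a gene took 86.95%, and in locus 10621, beside ENSG00000274090, they took 0.857%.

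Locus numbers follow the genome closely where they can be checked. Of 15972 loci with a gene in GENCODE 29, 97.2% have both neighbours in the numbering on the same chromosome. Of those, 99.8% lie on that chromosome as well, and 87.6% lie within 1 Mb of a neighbour. The last loci in the numbering, after locus 16936, are an exception in kind: the 24 Ensembl genes there that GENCODE 29 lists are 17 mitochondrial genes and 7 genes on scaffolds that are not placed in a chromosome. These last loci hold 59 transcripts, of which 25 rows in 17 loci have no Ensembl gene. A place in the numbering is not a coordinate, and the tables give none.

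Most rows were rare. Their median level was 1.23 CPM, against 5.536 CPM over all transcripts of the table, and 52.6% of the rows had a mean of at least 1 CPM, against 79.4% of all transcripts. There were 207 rows under 1 CPM, 143 between 1 and 10, 64 between 10 and 100, 19 between 100 and 1000 and 4 at 1000 or more. The 4 most abundant held 81.0% of the counts of all 437, and the 207 rarest held 0.144%. In every library 1 row was at 0, 59 rows had at most 3 counts in each library, and 234 rows had a count above 0 in all 12. A count of 0 allows up to 3 counts in that library. That limit speaks of counting error alone, because reads copied by PCR can stem from 1 molecule.

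At the other end, 3 of the rows were among the 10 most abundant transcripts of the whole table, and 5 were among the first 100. The leading row alone held 38.8% of the counts of the 437, the first 3 held 77.1%, the first 10 held 89.5% and the first 50 held 97.0%. The leading row ranked 2 among all 32819 transcripts by mean CPM. On the authors' TPM scale (which corrects for transcript length) the median was 1.324 for the rows and 3.071 for all transcripts.

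The rows' share of a library's counts could differ widely between libraries of the same fraction, most of all in the cytoplasm. In the cytoplasm it was 0.911% in replicate 1, 9.357% in replicate 2 and 7.871% in replicate 3. In the nucleus it was 1.818%, 3.876% and 1.271%, and in the nucleoplasm 7.733%, 6.494% and 4.683%. In chromatin it was 1.225%, 1.085% and 1.368%. Cytoplasm replicate 1 stood apart from the other 2 cytoplasm libraries, at a level below all chromatin libraries, and the nucleoplasm was above the nucleus and chromatin in every library.

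Nearly all of that spread lay in the 25 rows of the last loci, which together held 82.3% of the counts of the 437. They took 0.0846% of counts in cytoplasm replicate 1 and 8.651% in cytoplasm replicate 2. The other 412 rows took 0.787 ± 0.0703% (SD, n = 3) in the cytoplasm, 0.659 ± 0.12% in the nucleus, 0.721 ± 0.0381% in the nucleoplasm and 0.738 ± 0.0497% in chromatin. The ranges of these 4 fractions overlapped.

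**Figure D1:**
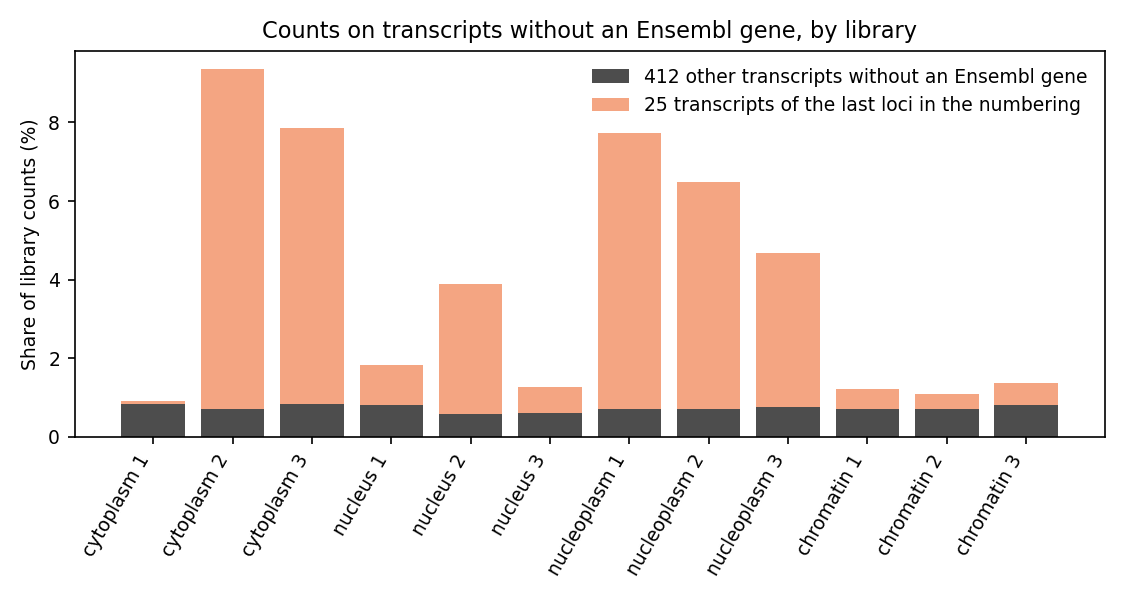
Share of library counts (%, vertical axis) taken by the 437 transcripts without an Ensembl gene in each of the 12 libraries, split into the 25 of the last loci in the numbering and the 412 others. The lower segment stays between 0.577% and 0.828%, while the upper segment runs from 0.0846% in cytoplasm replicate 1 to 8.651% in cytoplasm replicate 2.

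How far the counts gathered in few rows followed the same split. The 5 rows with the most counts over all libraries held 88.75 ± 3.39% (SD, n = 3) of the rows' counts in the nucleoplasm, 65.1 ± 15.1% in the nucleus and 42.44 ± 4.24% in chromatin. In the cytoplasm they held 19.1% in replicate 1, 93.25% in replicate 2 and 90.67% in replicate 3. Reaching 90% of the rows' counts took 3 to 8 rows in the nucleoplasm, 11 to 40 in the nucleus and 49 to 56 in chromatin. In the cytoplasm it took 61 rows in replicate 1 and 3 and 4 rows in the other libraries. Cytoplasm replicate 1 thus needed the most rows of the 12 libraries, and the other cytoplasm libraries lay within or next to the range of the nucleoplasm. The largest row also differed: ESC.16985.1 led in cytoplasm replicates 2 and 3 and in all nucleoplasm libraries, ESC.16984.1 in all chromatin libraries and in nucleus replicate 3, ESC.16982.1 in nucleus replicates 1 and 2, and ESC.15483.1 in cytoplasm replicate 1.

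**Figure D2:**
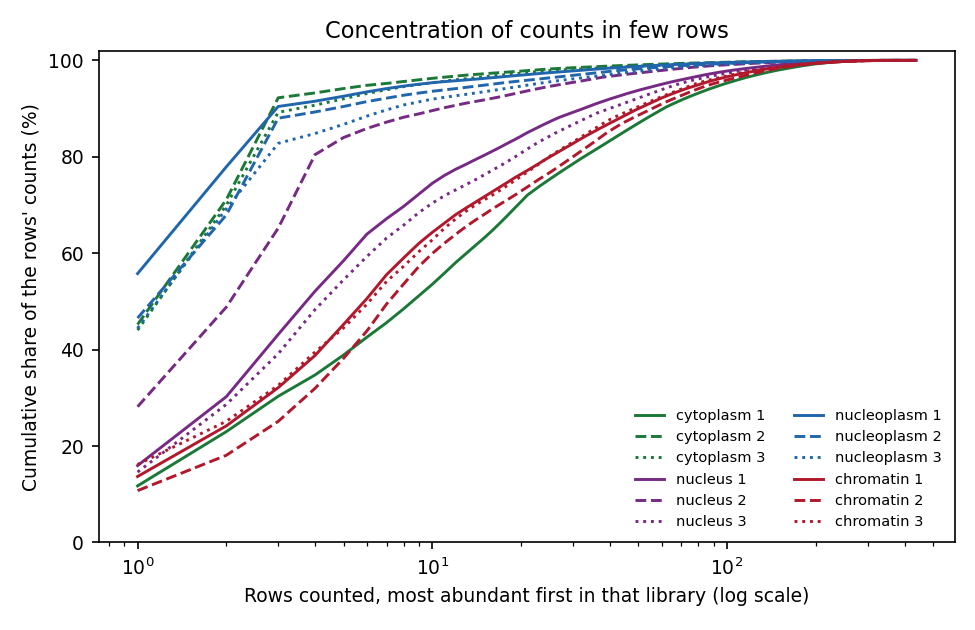
Cumulative share of the rows' counts (%, vertical axis) against the number of rows counted, most abundant first within each library (log scale), for the 12 libraries coloured by fraction. Cytoplasm replicates 2 and 3 and the nucleoplasm libraries reach 90% within 3 to 8 rows, and chromatin and cytoplasm replicate 1 need 49 to 61.

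Of the rows that lead the list, 3 shared a pattern across libraries. ESC.16985.1, with an estimated length of 1718 bases, was at 143 CPM (1195 counts) in cytoplasm replicate 1, 42304 CPM in replicate 2 and 34665 CPM in replicate 3. It was at 2347, 6351 and 1783 CPM in the nucleus, at 43130, 30228 and 20807 CPM in the nucleoplasm, and at 1286, 606 and 686 CPM in chromatin. The nucleoplasm was above chromatin and the nucleus without overlap, while the cytoplasm libraries spanned the whole range: replicate 2 was 295-fold above replicate 1. Lengths here were estimated from the ratio of counts to TPM, which on 15200 listed transcripts missed the annotated length by a median of 9.28%.

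ESC.16984.1 (1371 bases) was at 197, 24228 and 20406 CPM in the cytoplasm, 2598, 8008 and 1855 CPM in the nucleus, 17127, 13883 and 11605 CPM in the nucleoplasm and 1675, 1166 and 2212 CPM in chromatin. ESC.16946.1 (594 bases), the highest of all the rows by TPM, was at 155, 19779 and 15161 CPM in the cytoplasm, 1632, 5910 and 1164 CPM in the nucleus, 9685, 13042 and 6359 CPM in the nucleoplasm and 971, 744 and 1018 CPM in chromatin. In both, as in ESC.16985.1, cytoplasm replicate 1 was the lowest of the 12 libraries and the other cytoplasm libraries were among the highest. Their counts did not stay in 1 ratio, though. ESC.16985.1 had 1.7 to 2.52 times the counts of ESC.16984.1 in cytoplasm replicates 2 and 3 and in the nucleoplasm, and 0.31 to 0.961 times in cytoplasm replicate 1, the nucleus and chromatin.

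Differences were tested with edgeR's quasi-likelihood F test on all 28897 transcripts of the table that passed a filter on low counts, with Benjamini-Hochberg adjustment over all of them and a threshold of 0.05. ESC.16985.1 was lower in chromatin than in the nucleoplasm by a log2 change of -5.46 (SE 1.45, edgeR adjusted p = 0.042), a call that was lost when any 1 of the 6 libraries was left out. It was lower in chromatin than in the cytoplasm by -5.12 (SE 1.43, edgeR adjusted p = 0.0163), although cytoplasm replicate 1 lay below all chromatin libraries. The change was -5.70 without that library and -4.52 without cytoplasm replicate 2, and the call was lost without chromatin replicate 2 (-4.91) or 3 (-4.96). ESC.16984.1 and ESC.16946.1 were also lower in chromatin than in the cytoplasm, by -3.37 (SE 1.19, edgeR adjusted p = 0.0466) and -3.91 (SE 1.25, edgeR adjusted p = 0.031). Each of these calls was lost in 5 of the 6 fits that left out a library compared, the exception being the fit without cytoplasm replicate 1, where the changes were -3.96 and -4.49. For ESC.16946.1 the change was -3.26 without cytoplasm replicate 2. The difference of these 3 rows between cytoplasm and nucleus did not pass the test, with log2 changes of 2.85 for ESC.16985.1, 1.82 for ESC.16984.1 and 1.98 for ESC.16946.1.

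The fourth most abundant row had another distribution. ESC.16982.1 (3237 bases) was at 219, 98.8 and 88.4 CPM in the cytoplasm, 2898, 10916 and 1335 CPM in the nucleus, 109, 161 and 89.2 CPM in the nucleoplasm and 817, 763 and 1226 CPM in chromatin. Every nucleus and chromatin library was above every cytoplasm and nucleoplasm library. It was lower in the cytoplasm than in the nucleus by a log2 change of -5.26 (SE 0.784, edgeR adjusted p = 0.000459), and -3.98 without nucleus replicate 2, its highest library. It was higher in chromatin than in the cytoplasm by 2.57 (SE 0.694, edgeR adjusted p = 0.014), a call lost without cytoplasm replicate 2 (2.40) or 3 (2.33). Against the nucleoplasm, chromatin was higher by 2.69 (SE 0.697, edgeR adjusted p = 0.0388), and this call was lost when any 1 of the 6 libraries was left out.

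Its neighbour in the numbering with a like distribution, ESC.16980.1 (2540 bases), was at 8.40, 6.01 and 4.71 CPM in the cytoplasm, 409, 1376 and 151 CPM in the nucleus, 13.1, 9.76 and 13.1 CPM in the nucleoplasm and 70.8, 58.5 and 105 CPM in chromatin. The 4 fractions did not overlap. It had the largest fall from nucleus to cytoplasm of the named rows, with a log2 change of -6.71 (SE 0.797, edgeR adjusted p = 0.000111), and -5.47 without nucleus replicate 2, its highest library. ESC.16979.1 (843 bases), one number before it, was highest in chromatin at 13.9, 16.1 and 29.8 CPM, against 3.75, 2.21 and 4.98 CPM in the nucleoplasm (log2 change 2.17, SE 0.55, edgeR adjusted p = 0.0362). That call and the one for ESC.16980.1 in the same comparison (2.43, edgeR adjusted p = 0.0455) were lost in 5 and in 6 of the 6 fits without a library compared.

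A pair of short rows is numbered next to mitochondrial genes, which encode the ribosomal RNAs and respiratory chain subunits made inside the organelle. ESC.16948.1 (257 bases), numbered just before the ribosomal RNA gene MT-RNR1, was at 1.80, 1.14 and 1.59 CPM in the cytoplasm, 30.7, 57.9 and 60.5 CPM in the nucleus, 35.9, 173 and 29.3 CPM in the nucleoplasm and 28.7, 23.4 and 19.5 CPM in chromatin. ESC.16970.1 (393 bases), numbered just after the cytochrome b gene MT-CYB, was at 6.48, 7.28 and 7.76 CPM in the cytoplasm, 94.0, 122 and 129 CPM in the nucleus, 99.5, 169 and 94.0 CPM in the nucleoplasm and 52.4, 46.5 and 45.2 CPM in chromatin. Both were lowest in all cytoplasm libraries, as were the mitochondrial genes as a whole. In the cytoplasm against the nucleus the log2 change was -5.10 (SE 0.745, edgeR adjusted p = 0.000404) for ESC.16948.1 and -4.03 (SE 0.259, edgeR adjusted p = 1.32e-06) for ESC.16970.1. ESC.16970.1 was also lower in chromatin than in the nucleoplasm, by -1.61 (SE 0.23, edgeR adjusted p = 0.00493), and of the 7 named rows called in that comparison it was the only one whose call held whichever of the 6 libraries compared was left out.

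**Figure D3:**
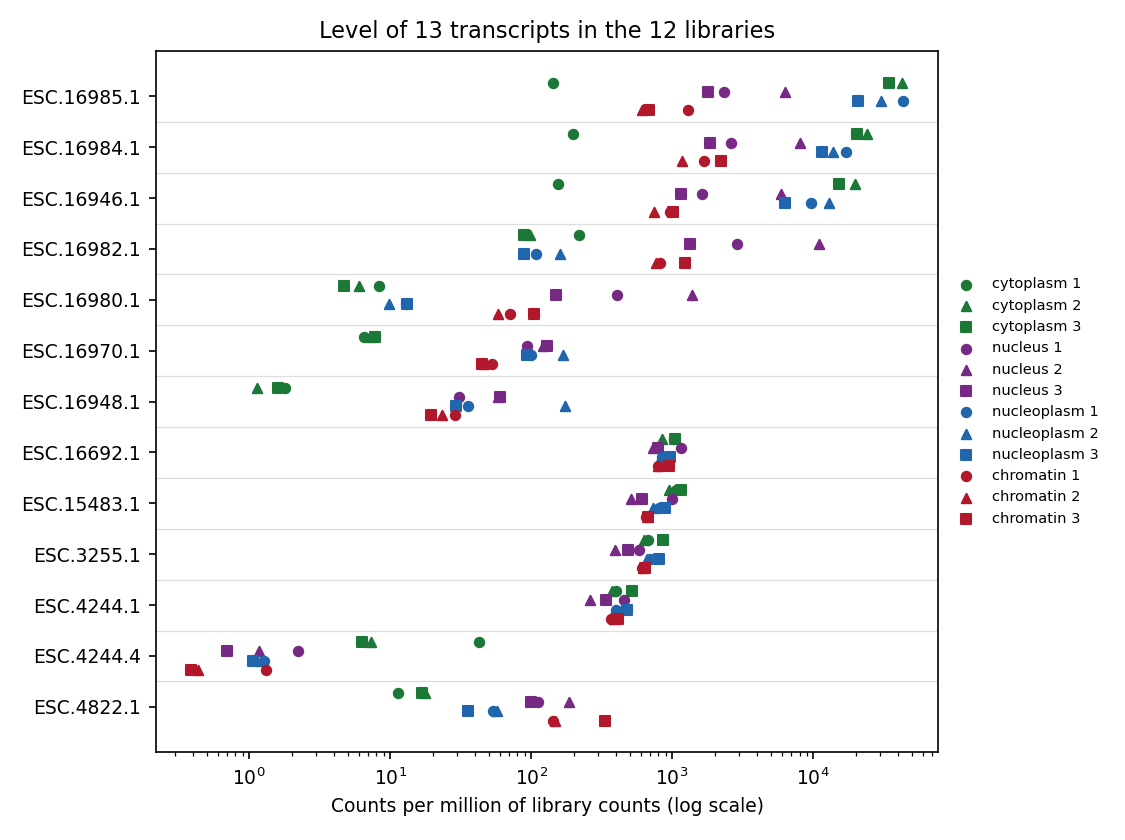
Level in CPM (log scale, horizontal axis) of 13 transcripts without an Ensembl gene in the 12 libraries, coloured by fraction and with a symbol per replicate. The top 3 rows run from 143 CPM in cytoplasm replicate 1 to 43130 CPM in nucleoplasm replicate 1, while ESC.16692.1 stays between 730 and 1152 CPM.

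Outside the last loci, most of the 10 most abundant rows varied little between libraries. ESC.16692.1 (5306 bases), in a locus numbered between LRCH2 and PLS3, both on chromosome X, was at 1026, 845 and 1050 CPM in the cytoplasm, 1152, 730 and 787 CPM in the nucleus, 842, 839 and 958 CPM in the nucleoplasm and 790, 795 and 948 CPM in chromatin. Its highest library was 1.58 times its lowest and all 4 fractions overlapped. Among the 693 transcripts of the table with a mean of at least 200 CPM and no 0, the median ratio of highest to lowest library was 3.82. The same ratio was 2.26 for ESC.15483.1, 2.21 for ESC.3255.1, 2.61 for ESC.1546.8, 1.97 for ESC.4244.1, 1.59 for ESC.10544.1, 1.5 for ESC.4637.1 and 2.11 for ESC.7509.2. It was higher for ESC.4244.2, at 3.72, and for ESC.1546.9, at 5.28. The limit of 200 CPM was not asked of these rows: ESC.7509.2, ESC.4244.2 and ESC.1546.9 had medians over the libraries of 158, 120 and 96.6 CPM.

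ESC.15483.1 (5205 bases), numbered just before WFDC2 on chromosome 20, was at 1069, 947 and 1161 CPM in the cytoplasm and at 657, 675 and 673 CPM in chromatin, without overlap. The log2 change of chromatin against the cytoplasm was -0.88 (SE 0.192, edgeR adjusted p = 0.00446), a call that held whichever of the 6 libraries compared was left out, but on the TPM scale it was 0.085. ESC.3255.1 (4402 bases) is in a locus numbered between DPPA4 and CMSS1 on chromosome 3, at distances not known here. DPPA4 encodes a chromatin protein that is a marker of pluripotent cells. ESC.3255.1 was at 669, 627 and 864 CPM in the cytoplasm and 583, 391 and 488 CPM in the nucleus (log2 change 0.54, SE 0.145, edgeR adjusted p = 0.0136). This call was lost without cytoplasm replicate 3 (0.40) or nucleus replicate 2 (0.41), and the same comparison of ESC.15483.1 (0.56, SE 0.192, edgeR adjusted p = 0.0401) was lost in 5 of the 6 fits without a library compared. In chromatin against the cytoplasm ESC.16692.1 and ESC.3255.1 both had a log2 change of -0.42 (edgeR adjusted p = 0.0487 and 0.0411), and on the TPM scale the direction turned for both, to 0.54 and 0.55. These calls were lost in 5 and in 4 of the 6 fits without a library compared. ESC.1546.8 is numbered between DEGS1 and TLR5 (chromosome 1), ESC.4244.1 between C4orf33 and SH3RF1 (chromosome 4) and ESC.10544.1 between LINC00428 and DCLK1 (chromosome 13). Distances to these genes are not known either. These rows were called in none of the 4 comparisons. Their log2 changes of cytoplasm against nucleus were 0.33, 0.26 and -0.18.

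Across all 437 rows, 279 passed the filter and were tested and 158 were too low. In the cytoplasm against the nucleus 82 of the 279 were called, 34 higher and 48 lower in the cytoplasm, which is 29.4% against 39.7% of all tested transcripts (19.6% higher and 20% lower). Their median log2 change was -0.09, against 0.01 for all transcripts. In chromatin against the cytoplasm 101 were called, 56 higher and 45 lower in chromatin, or 36.2% against 38.8% of all (22.1% higher and 16.7% lower). The median was 0.04, against 0.13. In the nucleoplasm against the cytoplasm 78 were called, 48 higher and 30 lower in the nucleoplasm, or 28% against 29.7% of all (16% higher and 13.7% lower), with a median of 0.13 against 0.05. These 3 comparisons share the cytoplasm libraries. In the cytoplasm against the nucleus, 47% of transcripts that Ensembl lists and 28.5% of new isoforms of Ensembl genes were called.

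The fewest calls fell between chromatin and the nucleoplasm. Of the 279 rows 14 were called, 9 higher and 5 lower in chromatin, or 5.02% against 9.75% of all tested transcripts (6.08% higher and 3.67% lower), with a median of -0.06 against 0.02. On total counts without scaling factors 81% of the calls were higher in chromatin, against 64.3% here, and with TPM it was 91.9%. The count fell to 2 without nucleoplasm replicate 1 or without nucleoplasm replicate 3, and to 6 without nucleoplasm replicate 2. It was 9, 7 and 8 without chromatin replicates 1, 2 and 3, 9 without cytoplasm replicate 3, and 18 without cytoplasm replicate 1. The count over all transcripts moved with it, from 2818 to 734, 829 and 1260 without nucleoplasm replicates 1, 3 and 2. The libraries of the groups did not overlap for 77 rows (27.6%, against 39.2% of all transcripts), and in the cytoplasm against the nucleus for 136 rows (48.7%, against 54.5%). In chromatin against the cytoplasm it was 144 rows (51.6%, against 52.7%), and in the nucleoplasm against the cytoplasm 135 (48.4%, against 49%). A difference among any of the 4 fractions was called for 104 rows, 37.3% against 45% of all. Of those 104, 46 had their highest mean in chromatin, 34 in the cytoplasm, 14 in the nucleoplasm and 10 in the nucleus. Over all transcripts called, 32.9% were highest in chromatin and 38.5% in the cytoplasm, against 44.2% and 32.7% of the 104. Without selection by the test the shares were close: of rows with a mean of at least 1 CPM 37.8% were highest in chromatin and 32.2% in the cytoplasm, against 38.5% and 32.6% of all such transcripts.

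By number of rows, calls in the last loci leaned to the nuclear side. Of 24 tested rows of the last loci, 1 was higher and 13 were lower in the cytoplasm than in the nucleus. Of the other 255 rows 33 were higher and 35 lower, and of all tested transcripts 19.6% and 20%. In chromatin against the cytoplasm 15 of the 24 were higher and 4 lower. Of the other 255 there were 41 each way, and of all tested transcripts 22.1% were higher and 16.7% lower. The 4 lower rows include the 3 most abundant, ESC.16985.1, ESC.16984.1 and ESC.16946.1. Some of the 24 are isoforms of the same locus, such as the 6 of ESC.16938. That contrast between the groups of rows was seen after the values were known and was not tested.

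Outside the last loci, the named row with the largest rise from cytoplasm to chromatin was ESC.4822.1, with the long estimated length of 14610 bases, in the locus of ENSG00000288774 numbered between PCYOX1L and SCGB3A2 on chromosome 5. It was at 11.4, 17.8 and 16.8 CPM in the cytoplasm, 112, 185 and 100.0 CPM in the nucleus, 53.3, 57.1 and 35.6 CPM in the nucleoplasm and 142, 147 and 332 CPM in chromatin. The cytoplasm was lowest in every library. The log2 change was -3.13 (SE 0.397, edgeR adjusted p = 0.000169) in the cytoplasm against the nucleus and 3.52 (SE 0.403, edgeR adjusted p = 0.000102) in chromatin against the cytoplasm. Chromatin was above the nucleoplasm by 1.80 (edgeR adjusted p = 0.0178), a call lost without nucleoplasm replicate 1 (1.88) or 3 (1.57).

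ESC.4354.3, numbered just before MARCHF11 on chromosome 5, had 0, 7 and 20 counts in the cytoplasm and 104, 88 and 90 counts in chromatin, and 54, 108 and 111 counts in the nucleoplasm. It was higher in the nucleoplasm than in the cytoplasm by 3.46 (SE 0.833, edgeR adjusted p = 0.0104), and by 4.64 without cytoplasm replicate 3, the highest of the cytoplasm libraries. ESC.16407.1, numbered between MAOB and LINC02595 on chromosome X, had 50, 62 and 77 counts in the nucleoplasm, against 19, 8 and 23 in chromatin, 10, 25 and 9 in the cytoplasm and 10, 15 and 10 in the nucleus. Scaled to library totals, every nucleoplasm library was above every other library. It was lower in chromatin than in the nucleoplasm by -2.22 (SE 0.537, edgeR adjusted p = 0.0305), a call lost in 5 of the 6 fits without a library compared, and higher in the nucleoplasm than in the cytoplasm by 2.04 (SE 0.535, edgeR adjusted p = 0.016), which held in all 6.

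The rows with the largest rises in the cytoplasm were short isoforms of loci with several rows. ESC.4244.4 (525 bases) was at 42.7, 7.28 and 6.37 CPM in the cytoplasm, and between 0.39 and 2.22 CPM in all other libraries. It was higher in the cytoplasm than in the nucleus by a log2 change of 3.76 (SE 0.845, edgeR adjusted p = 0.00521), and 2.31 without cytoplasm replicate 1, its highest library. ESC.14991.4 (947 bases) had 98, 80 and 26 counts in the cytoplasm, 7, 4 and 0 in the nucleus, 3, 0 and 0 in the nucleoplasm and 4, 4 and 0 in chromatin. Its rise over the nucleus (log2 change 4.52, SE 1.51, edgeR adjusted p = 0.0365) was lost without cytoplasm replicate 1 (3.71), without nucleus replicate 1 (5.32) and in 3 other fits without a library compared. ESC.7642.12 (759 bases) had 76, 65 and 21 counts in the cytoplasm, 25, 0 and 9 in the nucleus and 0 in every nucleoplasm and chromatin library. Its cytoplasm mean was 23.2 times a floor of 3 counts per library in chromatin and 22.3 times that floor in the nucleoplasm. These folds leave out the spread between the cytoplasm libraries. It was called higher in the cytoplasm than in chromatin (edgeR adjusted p = 0.0167) and than in the nucleoplasm (edgeR adjusted p = 0.0241). The first call held whichever of the 6 libraries was left out, and the second was lost in 5 of 6 such fits. ESC.14991.4 and ESC.7642.12 passed the filter on low counts only through their cytoplasm libraries, the group in which they were then called higher. Their adjusted p-values are therefore not support apart from that choice. ESC.4021.16 (1169 bases) had 7, 8 and 31 counts in the cytoplasm, 42, 0 and 43 in the nucleoplasm and 0 in every nucleus and chromatin library. Its cytoplasm mean was 5.47 times a floor of 3 counts per library in the nucleus. The call (edgeR adjusted p = 0.0488) was lost when any 1 of the 6 libraries was left out. ESC.4021.16 passed the filter only through its cytoplasm and nucleoplasm libraries, so this p-value has the same limit.

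Some loci held rows with unlike distributions. In locus 4244, ESC.4244.1 (3545 bases) was called in no comparison, while ESC.4244.2 (2078 bases) was at 276, 327 and 338 CPM in the cytoplasm and 185, 124 and 116 CPM in the nucleus (log2 change 1.13, SE 0.184, edgeR adjusted p = 0.000808). The same was seen in locus 1546, where ESC.1546.9 (2661 bases) was at 378, 297 and 237 CPM in the cytoplasm and 181, 91.5 and 78.9 CPM in the nucleus (1.37, edgeR adjusted p = 0.00485) beside the uncalled ESC.1546.8. In locus 3255 the rows went the same way: ESC.3255.4 (1840 bases) had a log2 change of 1.24 (edgeR adjusted p = 0.00761) and ESC.3255.1 one of 0.54. These 3 shorter isoforms were chosen after their values were seen. Of the 35 loci with several tested rows, 9 (25.7%) had rows called in both directions between cytoplasm and nucleus, and 7 had several calls that all went 1 way. Over the whole table, 7.28% of 6303 loci with several tested transcripts had calls in both directions. Loci hold different numbers of tested transcripts, and this was not adjusted for. How reads were divided between isoforms that overlap is part of the authors' counting, so the level of an isoform is known less well than that of its locus.

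Length followed the direction of the calls. The 34 rows that were higher in the cytoplasm than in the nucleus had a median estimated length of 1107 bases, and the 47 of the 48 lower rows that have a length had a median of 4530 bases. Over all transcripts called in that comparison the medians were 1748 and 3668 bases, so the same order was present in the table as a whole. Between chromatin and the cytoplasm the medians were 4528 bases for the rows higher in chromatin and 1248 bases for those lower, against 3821 and 1529 bases for all transcripts. Some rows of the last loci did not follow this order: ESC.16948.1 and ESC.16970.1, at 257 and 393 bases, were among the shortest and among the lowest in the cytoplasm.

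**Figure D4:**
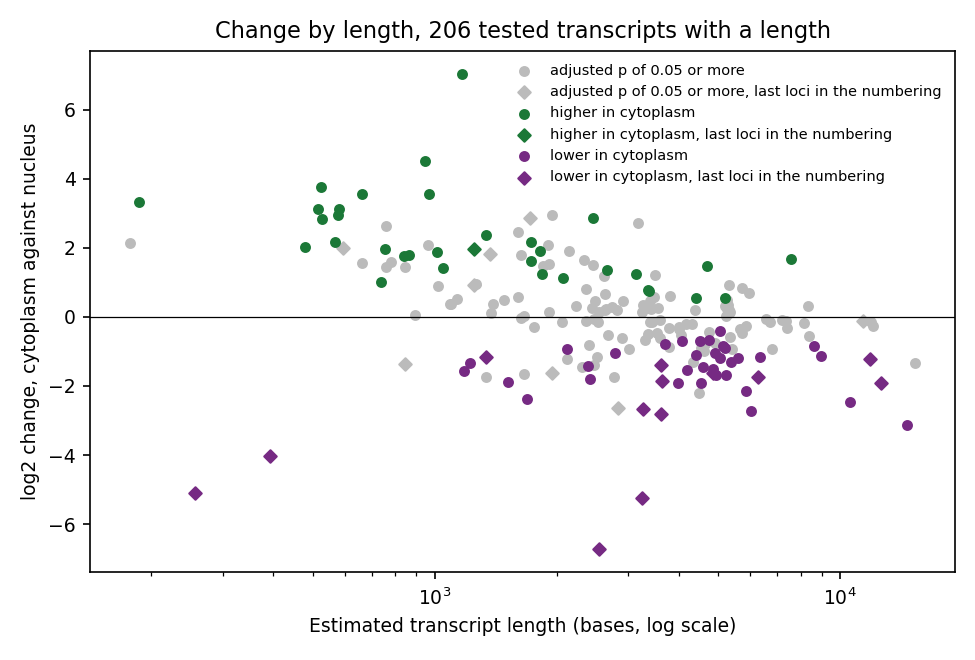
Log2 change of cytoplasm against nucleus (vertical axis) against estimated length in bases (log scale) for the 206 tested transcripts without an Ensembl gene that have a length estimate, coloured by call, with diamonds for the last loci in the numbering. Rows higher in the cytoplasm sit mostly at the left, with a median of 1107 bases, and rows lower in the cytoplasm sit mostly at the right, with a median of 4530, apart from a few diamonds.

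A length could be estimated for 206 of the rows, from 177 to 15340 bases with a median of 3077. The median was 2483 bases for transcripts that Ensembl lists and 3235 bases for new isoforms of Ensembl genes. Some of the abundant rows had similar estimated lengths: 18 rows of 16 loci lay between 5000 and 5500 bases, or 8.74% of those with a length, against 3.82% of all transcripts. Among rows with a mean of at least 10 CPM it was 17.2%, against 4.9% of all such transcripts. They include ESC.16692.1, ESC.15483.1 and ESC.1546.8, 3 of the abundant rows described before, and held 41.2% of the counts of the rows outside the last loci. That window was chosen after the lengths were seen, and no test was made of it. On listed transcripts the estimates missed the annotated length by a median of 9.28%, and 78.2% came within 25%. With that error the estimates cannot show that these rows share a length.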

How the data were processed

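Counts and TPM of the 12 H1 libraries were used. The authors' deposited count table holds whole-number expected counts per transcript, and the deposited TPM table sums to the same total in each library. STAR, RSEM and hg38 are named in the submitters' processing notes, without versions. Library kit and fractions are per the labels, and columns coded "Nei" were read as the nucleus. Expected counts are estimates, divided between overlapping isoforms by the authors' counting.

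CPM and shares were computed from library totals with Python 3.11.15. Tests used edgeR 4.0.16 in R 4.3.3, with all 12 libraries in 1 two-sided fit, scaled by TMM, after filterByExpr (minimum count 10). The deposited counts were taken as they are. The method was tested on simulated data. Alternatives were other scalings, DESeq2 1.42.0, limma 3.58.1 on log2(TPM + 1), other filters, a replicate block, and leaving out each library. The 12 replicate pairs held 0 identical libraries (lowest chi-squared per degree of freedom 14.27).

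Named are the 10 most abundant rows, the 3 most abundant per fraction, and per comparison up to 3 rises and 3 falls among called rows without overlap and with at least 1 CPM in the higher group. The rows, lists and comparisons were chosen with earlier results of these data known. Other tables were not used here.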

Additional observations from a re-analysis of the deposited data

How the results depend on the processing

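In chromatin against the nucleoplasm 14 rows became 33 with DESeq2, 62 with limma on log2(TPM + 1) (57 higher and 5 lower) and 8 with the replicate block, and it ran from 2 to 18 when 1 library was left out. Calls over all transcripts moved alike, from 2818 to 5337, 9640 and 1971, and from 734 to 3585. In the other comparisons leaving out 1 library gave 61 to 83 (cytoplasm against nucleus), 82 to 106 (chromatin against cytoplasm), 60 to 78 (nucleoplasm against cytoplasm) and 82 to 97 (any difference). The replicate block gave 81, 95, 68 and 90 there. Deviations of same-numbered libraries correlated weakly, from -0.0185 to 0.0701 (0 of 18 above 0.1). In cytoplasm with nucleus they were 0.0701, 0.0446 and 0.0394, and in nucleus with nucleoplasm 0.047, 0.0215 and 0.0358, above all unlike-numbered pairs there. In the other pairs of fractions same-numbered libraries did not stand above all others. Whether the numbers mark pairs is not known. With TPM, 3 log2 changes of chromatin against the cytoplasm reversed: ESC.16692.1 0.54, ESC.15483.1 0.085 and ESC.3255.1 0.55. The cause was not tested. Total counts moved the median of all transcripts by 0.27 in chromatin against the nucleoplasm and 0.22 in chromatin against the cytoplasm, upper-quartile factors by -0.16 in the latter and -0.13 in the nucleoplasm against the cytoplasm, and TPM by 0.43, 0.52, 0.17 and, in the cytoplasm against the nucleus, -0.23. Of chromatin against cytoplasm calls 55.4% were higher, 66% on total counts, 46.7% with upper-quartile factors and 83% with TPM. In the cytoplasm against the nucleus 41.5% were higher, and 28.8% with TPM. The rows' share without the last loci, an alternative added after seeing the data, was 0.787%, 0.659%, 0.721% and 0.738% in cytoplasm, nucleus, nucleoplasm and chromatin. Without the leading row the nucleoplasm share was 3.165%. The 5-row concentration was 94.84% (TPM) and 80.85% (without the leading row) in the nucleoplasm and 61.8% (TPM) in chromatin. Of the 43 log2 changes of named rows that were called, 22 kept the call when any library compared was left out. Depth limits the 158 rows that were not tested.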
